A study of Mus musculus with 4 samples.

Results

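Splicing factor and hnRNP genes of the mouse were followed over 4 blood cell populations. Genes were taken by symbol: those that begin with Sf3a, Sf3b, Snrp, U2af or Hnrnp, and those with Lsm, Prpf or Srsf and a number. Only probe sets annotated to exactly 1 gene symbol were used, which gave 197 probe sets for 74 genes of the 18193 on the array. They fell into 19 Hnrnp, 12 Lsm, 12 Prpf, 10 Srsf, 9 Snrp, 9 Sf3 (Sf3a and Sf3b) and 3 U2af genes. The populations were granulocytes, hematopoietic progenitor cells (HPC), and the stem cells LT-HSC and ST-HSC, which repopulate blood over a long and a short term, each on 1 single-channel Affymetrix array. Where 1 granulocyte signal is set against 3 others, these stand in the order HPC, LT-HSC, ST-HSC throughout. Granulocytes were sorted from bone marrow as strongly Gr-1 positive cells of high granularity, with a purity of 99.4% by morphology. HPC, LT-HSC and ST-HSC were lineage-negative, c-Kit positive cells, HPC without Sca-1, LT-HSC with Sca-1 and without CD34, and ST-HSC with both. The labels name no genotype, strain, age or treatment. All were donor cell types for nuclear transfer cloning, and the arrays addressed their cell-type expression profiles. RNA from 50 to 200 cells per type was amplified in 2 rounds.

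The spliceosome removes introns from pre-mRNA. Its small nuclear RNPs each carry a small nuclear RNA, a ring of Sm proteins (Snrp genes) or, on U6, of Lsm proteins, and particle-specific proteins. U1 binds the 5′ splice site, the U2af dimer marks the 3′ splice site, and the U2 particle with SF3a and SF3b sits on the branch point. The U4/U6.U5 tri-snRNP, to which several Prpf proteins belong, then brings in the catalytic core. SR proteins (Srsf genes) mostly promote the use of exons to which they bind, and hnRNP proteins coat nascent RNA and often oppose them. Mature granulocytes have condensed, lobed nuclei and do not divide, whereas progenitors proliferate.

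With 1 array per population there is no replicate error, and no test or p-value is given. Signals below 120.1, the median over the table, were treated as unmeasured, and this value is called the floor. The yardstick used here was how far probe sets for the same gene disagreed. Over 37 members with several probe sets above the floor on all arrays, the SD between them was 0.72 (log2) for the difference of granulocytes from the mean of the others, 0.45 for that of HPC from the stem cells and 0.41 for that between the stem cell arrays. It covers neither the sort nor the amplification. Between 48.7% and 52.5% of probe sets lay above the floor on each array. The 8 measured stem and progenitor markers summed to 988 in granulocytes against 21107, 43386 and 38060, and Cd34, by whose absence LT-HSC were sorted, had 17.2 against 5190, 2384 and 9778. The 9 granulocyte markers summed to 423450 on the granulocyte array. That sum was 22747 on the LT-HSC array, 5.37% of the granulocyte value and with 6 of the 9 genes above the floor, against 576 and 639 on the HPC and ST-HSC arrays. The 6 measured B-lineage markers summed to 1454 in granulocytes against 6723, 14005 and 525 on the others, with 3, 5, 6 and 1 of them above the floor. The ratio of 3′ to 5′ signal for the Gapdh control was 12.5 in granulocytes against 17.8, 14.9 and 12.4, and for the beta-actin control 5.75 against 12.2, 14.6 and 16.1.

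Granulocytes were compared with the other 3 arrays to see how the splicing machinery of the mature cell differed from that of stem and progenitor cells. Of the 74 genes, 23 were at least 2-fold lower in granulocytes than on each of the other 3 arrays, and none was at least 2-fold higher. Over all genes on the array, 12.7% were that much lower and 8.9% that much higher. The lower genes were led by factors of the U2 particle, the Sm ring and the Prp19 and tri-snRNP proteins, while Sf3b1, Hnrnpc, Hnrnpdl and Srsf2 gave nearly equal signals on all 4 arrays with their brightest probe sets. At 4-fold, 10 genes were lower (5.34% of all genes) and none higher (2.86% of all genes). Fewer transcripts per cell and a smaller part of such transcripts in the amplified pool cannot be told apart, since every array was scaled to the same mean.

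The members are brighter than most genes, and bright genes as a whole were more often lower in granulocytes. Among the 4289 genes with a mean signal at or above the lower quartile of the members (904), 26.1% were at least 2-fold lower and 13.2% at least 2-fold higher. Of the 55 members in that range, 19 were lower (34.5%) and 0 higher. The median log2 difference of granulocytes from the mean of the other arrays was -0.47 over the 74 members and 0 over all genes. In the bright range it was -0.63 over members and -0.31 over genes. The remaining members were 48 measured genes inside 2-fold of at least 1 other array, of which 22 were lower than all 3, 11 higher than all 3 and 15 in between, and 3 genes (Snrpn, Lsm2 and Srsf12) under the floor on every array. By any amount, then, 45 members were lower than all 3 and 11 higher, where 25.5% of all genes were lower and 30.1% higher. The lower 3′ to 5′ ratio of beta-actin in granulocytes moved with this comparison. The 6 monocyte and macrophage markers summed to 16275 in granulocytes against 14454, 906 and 1518 (4, 5, 3 and 5 of them above the floor), and the 7 cumulus cell markers to 8578 against 961, 732 and 270 (5, 2, 1 and 0 above the floor), of which Inhba gave 6566. The part of each in the result was not tested.

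**Figure D1:**
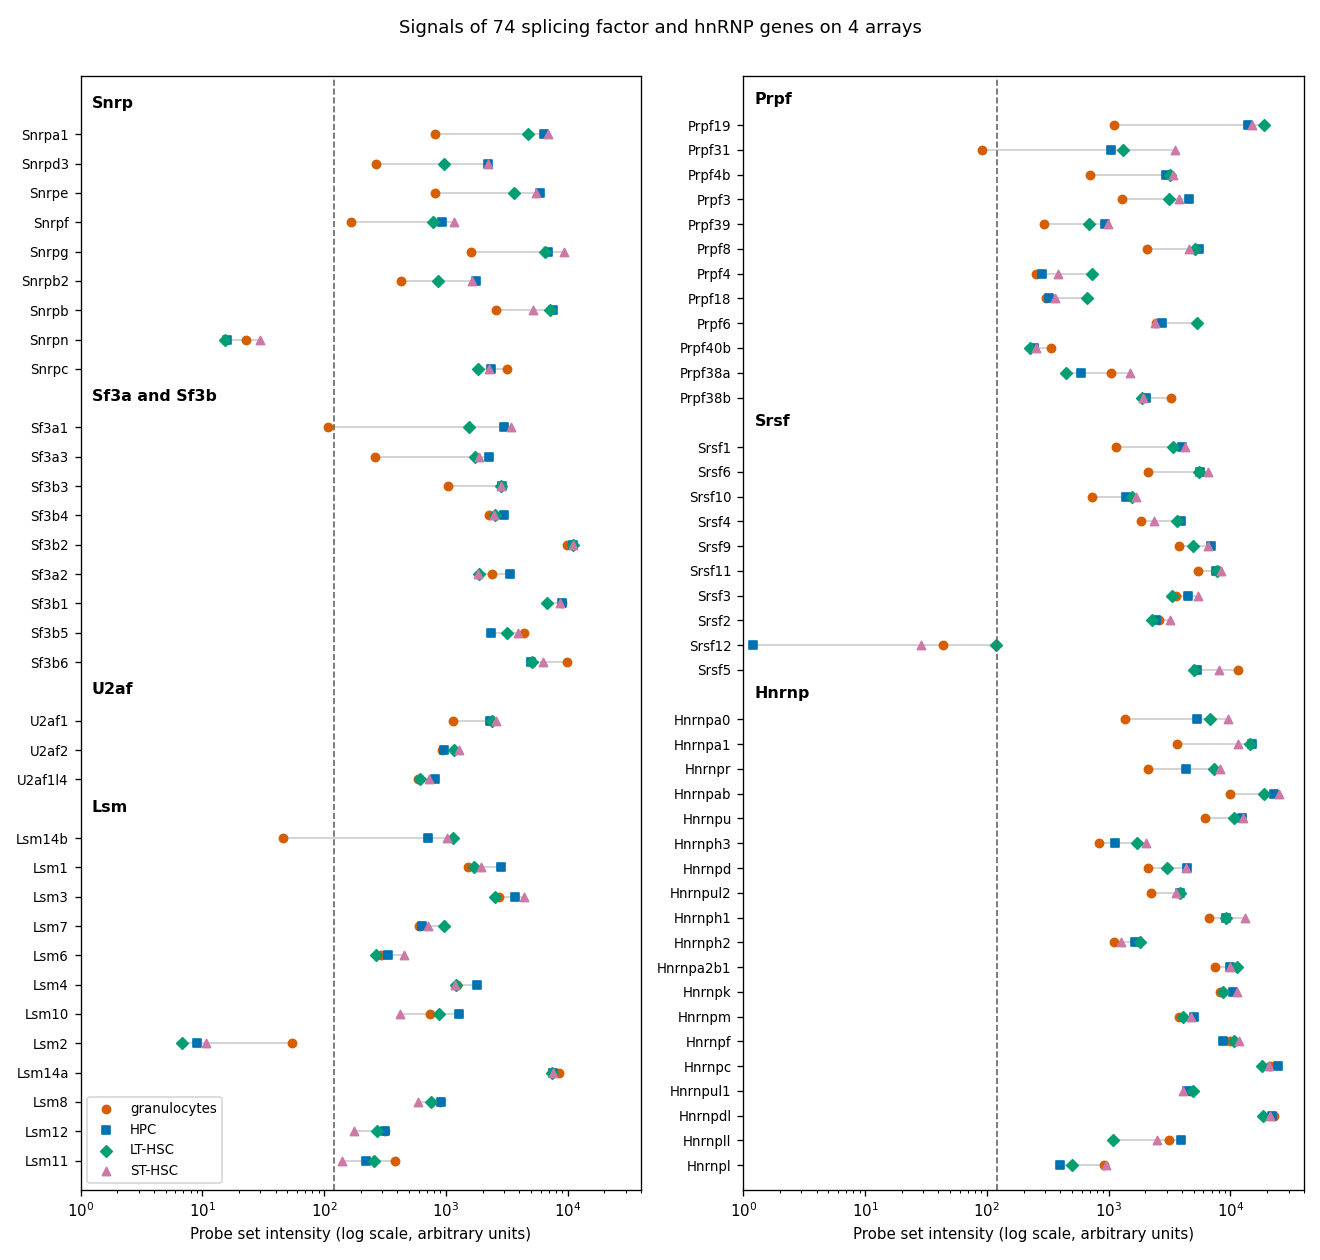
Probe set intensity (log axis) of the 74 genes on the granulocyte, HPC, LT-HSC and ST-HSC arrays, 1 point per array and gene, grouped by gene symbol; the dashed line is the floor of 120.1. In the Snrp block the granulocyte point lies left of the others for 7 of 9 genes, while most Lsm and Hnrnp genes have their 4 points close together.

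**Figure D2:**
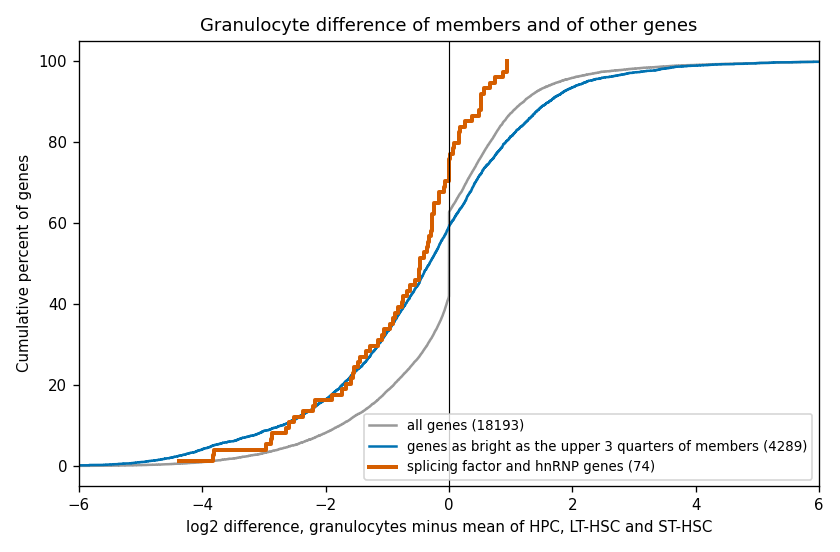
Cumulative percent of genes against the log2 difference of granulocytes from the mean of the other 3 arrays, for all 18193 genes, the 4289 bright genes and the 74 members. The line of the members runs close to that of the bright genes below 0 and ends at 0.95 (Srsf5), where the other lines go on.

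The Snrp genes were the group with the lowest median, at -2.20 log2 units. Of 9 genes, 7 (77.8%, against 12.7% of all genes and 26.1% of bright genes) were at least 2-fold lower in granulocytes. These comprised the 5 Sm ring genes with a single-symbol probe set above the floor and both proteins specific to U2. Snrpa1, the U2-A′ protein that binds the U2 RNA, had 817 in granulocytes against 6404, 4751 and 6911, so that granulocytes lay 5.81-fold under the nearest other array. Its 3 probe sets gave differences of -2.91 to -2.51. Snrpb2, its U2-B″ partner, had 429 against 1769, 867 and 1649, with LT-HSC the nearest at 2.02-fold.

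Within the Sm ring the granulocyte array was the lowest for each of these 5 genes by their brightest probe sets. Snrpf had 166 in granulocytes against 933, 789 and 1156, a 4.75-fold gap to the nearest. Snrpe had 812 against 5943, 3595 and 5533 (4.43-fold), and Snrpg had 1612 against 6840, 6458 and 9273 (4.01-fold). These proteins assemble in fixed numbers into the ring that all Sm-type snRNPs share. Snrpd3 had 269 against 2196, 969 and 2214 (3.61-fold). Snrpb had 2577 against 7566, 7174 and 5165, just past 2-fold (2.00). Dimmer probe sets of 3 of them did not pass 2-fold. A second probe set of Snrpd3 had 539 against 538, 424 and 1139, that of Snrpg had 132 against 190, 104 and 331, and that of Snrpb had 940 against 1181, 1024 and 998. Snrpf and Snrpe have 1 probe set each. Snrpd1, another Sm gene, was seen only with a probe set shared with Gm14277, where it had 271 against 495, 362 and 499. The exceptions in the group were Snrpc, the U1-C protein of the U1 particle, with 3181 in granulocytes and 2356, 1836 and 2278 elsewhere, and Snrpn, the imprinted relative of Snrpb, with 15.5 to 29.6 on all arrays.

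The SF3 genes were split between subunits of the same complexes. Of 9 genes, 3 (33.3%) were at least 2-fold lower in granulocytes and none higher, with a group median of -0.16. The lower share was 12.7% over all genes and 26.1% over bright genes. Sf3a3 had 262 in granulocytes against 2247, 1738 and 1856, a 6.64-fold gap. Sf3b3, a large scaffold subunit of SF3b, had 1040 against 2885, 2811 and 2827 (2.70-fold), and these 3 other arrays were nearly equal. Sf3a1 had 107, under the floor, against 2978, 1534 and 3448, which made it at least 12.8-fold lower. That value rested on 1 probe set: the others of Sf3a1 above the floor gave 547 against 1341, 608 and 838, and 219 against 198, 117 and 107.

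The remaining SF3 genes lay close together on the 4 arrays or were brightest in granulocytes. Sf3b1, the subunit that clamps the branch point, had 9034 in granulocytes and 8963, 6712 and 8695 elsewhere. Sf3b2 had 9942 against 11119 to 11148, and Sf3b4 had 2255 against 2496 to 2987. Sf3a2, at 2389, lay between HPC (3332) and the stem cell arrays (1887 and 1826). Sf3b6, the small subunit at the branch point, had 9917 in granulocytes and 4983, 5130 and 6266 elsewhere (1.58-fold above the nearest). Other bright probe sets of Sf3b6 had granulocytes under ST-HSC, with 3000 against 1872, 2666 and 3242.5, and 2824 against 2045, 2673 and 3116. A dim one had 129 against 78.2, 51.9 and 123.5. Sf3b5 had 4417 against 2348, 3188 and 3904. The gene of the U2af small subunit, U2af1, had 1146 against 2297, 2406 and 2575 and so just passed 2-fold (2.00). The large subunit gene U2af2 (930 against 960 to 1274) and the relative U2af1l4 (595 against 618 to 819) did not pass 2-fold.

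Of the groups, the Lsm genes had the median nearest to 0, at -0.12, with differences of both signs. At least 2-fold lower was 1 of 12 genes (8.33%, against 12.7% of all genes). That gene was Lsm14b, which has a role in cytoplasmic mRNA storage and not in the U6 ring. It had 46.2 in granulocytes, under the floor, and 718, 1137 and 1021 elsewhere, so that it was at least 5.98-fold lower. Its relative Lsm14a had 8552 against 7562, 7424 and 7596. Of the U6 ring, Lsm3 had 2705 in granulocytes against 2551 to 4384, Lsm4 1242 against 1810, 1221 and 1196, Lsm7 598 against 635 to 967, and Lsm8 888 against 919, 752 and 591. None of these 4 genes was 2-fold away from every other array. Lsm6 had 291 against 268 to 450, but a probe set of like brightness had 78.8, under the floor, against 490, 444 and 416. Lsm1, which replaces Lsm8 in the ring of mRNA decay, had 1526 against 2841, 1690 and 1939. Lsm11, of the U7 particle that processes histone mRNA, had 382 against 141 to 255, and its partner Lsm10 had 734 against 1275, 871 and 417. Lsm12 had 318 against 175 to 314.

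Of 12 Prpf genes, 6 (50%) were at least 2-fold lower in granulocytes and none higher, with a median of -1.02. The lower share was 12.7% over all genes and 26.1% over bright genes. Prpf19, the ubiquitin ligase at the centre of the Prp19 complex, had 1112 in granulocytes against 13978, 18854 and 14947, a 12.6-fold gap. All 5 of its probe sets had a difference below 0 (-3.83 to -0.08). The next brightest gave smaller gaps, with 668 against 2977, 4052 and 4044, and 610 against 2807, 3378 and 3673. Prpf31, which bridges U4/U6 and U5, had 91.1, under the floor, against 1036, 1307 and 3498, at least 8.62-fold lower. Prpf4b, a kinase needed for activation of the spliceosome, had 697 against 2958, 3182 and 3350 (4.24-fold). For Prpf19 and Prpf4b the 3 other arrays lay within 2-fold of each other, while for Prpf31 they did not.

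The other 3 lower Prpf genes were nearer to the threshold. Prpf3, of the U4/U6 particle, had 1283 against 4554, 3149 and 3784 (2.45-fold). Prpf39, a U1-associated protein, had 294 against 930, 690 and 980 (2.35-fold), but another of its probe sets had 359.9 against 359, 976.5 and 923. Prpf8, the scaffold of the catalytic centre, had 2065 against 5516, 5081 and 4562 (2.21-fold). Not every gene of the U4/U6.U5 tri-snRNP passed 2-fold. Prpf6 lay among the other arrays, with 2468 against 2765, 5289 and 2419. Prpf4 was lowest in granulocytes but by less than 2-fold, with 255 against 285, 728 and 384. The second-step factor Prpf18 had 303 against 325, 659 and 360, Prpf38a had 1048 against 589, 447 and 1487 and Prpf40b had 338 against 226 to 254. Prpf38b was the brightest in granulocytes, with 3264 against 2028, 1887 and 1905 (1.61-fold), but another of its probe sets gave 124 against 480, 417 and 305.

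Among SR proteins, 2 of 10 genes (20%) were at least 2-fold lower, with a median of -0.62. This share lay between the 12.7% of all genes and the 26.1% of bright genes. Srsf1, the classical SR protein SF2/ASF, had 1156 in granulocytes against 3987, 3343 and 4243 (2.89-fold), and its 6 probe sets above the floor all gave differences below 0. Srsf6 had 2093 against 5590, 5482 and 6491 (2.62-fold), but of its other probe sets 1 had 3078 against 3404, 4788 and 4462 (a difference of -0.44) and 1 had a difference of -0.58, so that its call rests on the choice of probe set. Srsf10 (736 against 1379 to 1674, 1.87-fold) stayed just inside the threshold. Srsf4, with 1828 against 3940, 3641 and 2367, Srsf9, with 3787 against 4938 to 6936, and Srsf11, with 5376 against 7575 to 8319, were lower by less. Srsf2 (2602 against 2269 to 3170) and Srsf3 (3576 against 3316 to 5407) lay among the other arrays. Srsf5 ran the other way, with 11500 in granulocytes and 5319, 4990 and 7987 elsewhere, 1.44-fold above the nearest. It was the member with the highest difference from the mean of the others (0.95).

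Of the 19 hnRNP genes, 3 were at least 2-fold lower (15.8%, near the 12.7% of all genes and under the 26.1% of bright genes), with a median of -0.48, and 10 more were lower by less. Hnrnpa0 had 1364 in granulocytes and 5325, 6766 and 9621 elsewhere (3.90-fold). Hnrnpa1, a shuttling protein that represses exons, had 3666 against 15158, 14471 and 11527 (3.14-fold). Hnrnpr had 2109 against 4324, 7293 and 8182 (2.05-fold), with HPC closer to granulocytes than either stem cell array. Another bright probe set of Hnrnpr did not pass 2-fold, with 1806.9 against 3274.5, 5409.2 and 8787.3. A dim one had 191 against 69, 142 and 573. Hnrnpab (9892 against 18742 to 24925, 1.89-fold) and Hnrnpu (6157 against 10658 to 12777, 1.73-fold), the scaffold attachment factor, came next. Granulocytes were also the lowest array, by smaller margins, for Hnrnpul2, Hnrnpd, Hnrnph1, Hnrnph3, Hnrnpa2b1, Hnrnph2, Hnrnpm and Hnrnpk, with nearest folds of 1.07 to 1.61. Among them Hnrnph3 had 836 against 1134, 1718 and 2008, and Hnrnph2 had 1115 against 1660, 1807 and 1260. Hnrnpc, a core protein of hnRNP particles, had 21144 against 18192 to 24370, but another of its probe sets had 4062 against 1693, 1600 and 2041. Hnrnpdl had 22828 against 21723, 18322 and 21116. Hnrnpf (9852 against 8632 to 11750) and Hnrnpul1 (4655 against 4099 to 4890) lay among the other arrays, as did Hnrnpl (913 against 402, 503 and 958) and Hnrnpll (3152 against 3899, 1081 and 2502).

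Directions of the small differences depended on the scaling. Scaling to a common 75th percentile or to the hybridization controls moves granulocyte differences by 0.23 or -0.53 (log2). This holds for genes above the floor on all arrays and represented by the same probe set. Members under the floor in granulocytes moved less, such as Sf3a1 (-4.38 as deposited, then -4.32 and -4.52). Lsm6, at -0.24 as deposited, had -2.04 with the hybridization controls. Members near 0 change sign with the scaling, 17 in all. After scaling to the hybridization controls, 58 members were lower than all other arrays and 3 higher, and with a common 75th percentile 35 were lower and 14 higher, against 45 and 11 as deposited. Sf3b1, Sf3b5, Lsm12, Lsm14a, Prpf40b and Hnrnpdl, all higher as deposited, had a mean difference below 0 after scaling to the hybridization controls. The 23 genes past 2-fold became 32 with the hybridization controls and 16 with the common 75th percentile, and no member was 2-fold higher than all other arrays under any of the 8 alternatives tried.

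Probe sets of 1 gene did not always give the same answer. Of 47 members with several probe sets above the floor on some array, 20 had probe sets on both sides of 0. The 23 lower genes included 16 with several such probe sets, and 2 of the 16, Sf3a1 and Prpf4b, had 1 probe set with a difference above 0. Srsf10 was a wide case, since 1 of its probe sets had 8.1 in granulocytes and 1293, 669 and 1061 elsewhere, beside 315 against 324, 191 and 282 for another. Srsf3 gave differences from -2.52 to 0.48, with 249 against 1193, 1703 and 1424 at the low end. Hnrnpa2b1 gave 2323 against 9263, 7611 and 8617 with 1 probe set and 3184 against 2186, 2570 and 1931 with another. Genes that looked level by their brightest probe set were split too. For Hnrnpdl the other 6 probe sets all gave differences below 0, down to -1.83 (635 against 1659, 2735 and 2547), and for Sf3b1 the probe sets ran from -0.80 to 1.02. Those of Hnrnpc ran from 0.01 to 1.20. Srsf11 was the only member with probe sets at least 2-fold from the mean of the others in both directions, at -1.02 and 1.11. Of 182 member probe sets above the floor on some array, 45 were at least 2-fold lower in granulocytes than on each other array and 2 higher. Those 2 were dim probe sets of Prpf6 (292 against 22.6, 12 and 19.3) and Prpf38a (285 against 58.9, 40.5 and 60.9). The shares over all probe sets were not counted. Which transcript forms these probe sets detect was not analysed here.

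**Figure D3:**
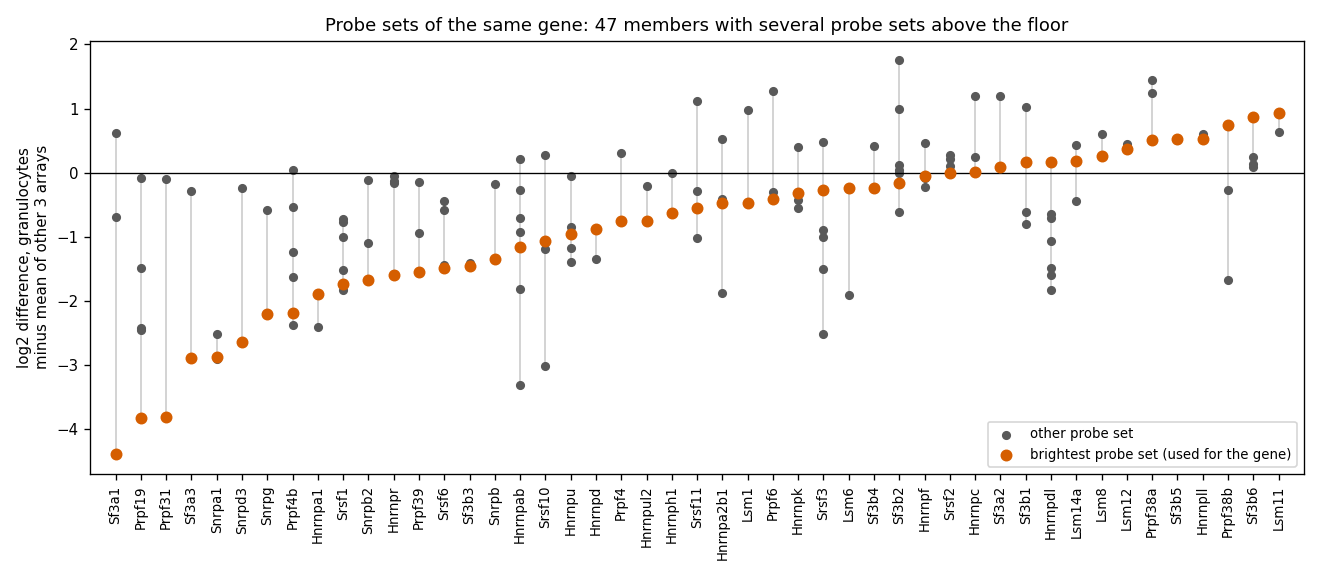
Log2 difference of granulocytes from the mean of the other 3 arrays for each probe set above the floor on at least 1 array, for the 47 members with several; the larger points are the brightest probe sets, which represent the gene. Prpf19, Snrpa1 and Srsf1 have all points below 0, whereas Hnrnpab, Srsf3, Srsf11 and Sf3b2 have points on both sides.

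Other genes of RNA splicing were taken from 6 lists. Of 119 measured genes outside the symbol rule, 32 were at least 2-fold lower in granulocytes (26.9%) and 5 higher (4.2%), with a median of -0.59. The lower share was above the 12.7% of all genes and level with the 26.1% of bright genes, and the higher share was below both (8.9% and 13.2%). Among 17 genes of the exon junction complex and snRNP assembly, 6 were lower (35.3%) and none higher. They included Tgs1, which trimethylates the cap of snRNAs (250 against 3836, 2827 and 3095), Prmt5, which methylates Sm proteins (87.2, under the floor, against 969, 932 and 1027), and Clns1a, the chaperone that presents Sm proteins to Prmt5 (4903 against 21189, 18041 and 21830). Each of these 3 genes had its 3 other arrays close together and granulocytes well below them.

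The other lists held from 0 to 2 genes that were at least 2-fold higher. Their shares of lower genes ran from 14.3% to 29.7%, where 12.7% of all genes and 26.1% of bright genes were lower. Of 21 small nuclear RNP proteins, 5 were lower, among them Snrnp40 of U5 (1129 against 4079, 5011 and 3615), and 1 higher, Zmat5 (409 against 55, 33.5 and 122). Of 27 Prp19 complex and catalytic factors, 7 were lower and 2 higher. The helicase gene Dhx38 was the higher of these, with 1267 against 77.2, 349 and 300, while the prolyl isomerase gene Ppie had 34.0 against 864, 1057 and 1522. Of 37 SR-related proteins and regulators of exon choice, 11 were lower and none higher, such as Ewsr1 (847 against 5989, 5192 and 8125) and Tardbp (1059 against 4941, 5242 and 4036). Of 10 kinases and carriers of SR proteins, 2 were lower and 1 higher. Srpk2, a kinase of SR proteins, had 4329 against 1752, 2051 and 1610, and Ppp1r8, a nuclear inhibitor of protein phosphatase 1, had 99.4 against 1600, 1848 and 1063. Of 7 factors of nonsense-mediated decay, Smg6 was lower (161 against 916, 813 and 573) and Smg9 higher (1406 against 528, 488 and 659).

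In the comparison of HPC with LT-HSC and ST-HSC no member passed 2-fold. None of the 74 was at least 2-fold lower or higher than both, where 2.69% of all genes were lower and 2.12% higher. The median difference was 0.06. Sf3a2 came nearest on the higher side, with 3332 in HPC against 1887 and 1826 (1.77-fold), followed by Hnrnpll, a regulator of CD45 splicing in lymphocytes, with 3899 against 1081 and 2502 (1.56-fold). The decay factor Lsm1 (2841 against 1690 and 1939) and Lsm4 (1810 against 1221 and 1196) were also brightest in HPC. On the lower side Hnrnpr had 4324 against 7293 and 8182 (1.69-fold) and Hnrnph3 had 1134 against 1718 and 2008 (1.52-fold). From the mean of both stem cell arrays Sf3a2 differed by 0.84, Hnrnpll by 1.25, Hnrnpr by -0.84 and Hnrnph3 by -0.71 log2 units, beside the SD between probe sets of 0.45. With other choices of probe set up to 3 members passed 2-fold, all lower in HPC. Of the 119 splicing genes outside the symbol rule, 4 were at least 2-fold lower in HPC (3.36%) and 0 higher. The widest of them was Srrm2, with 1889 against 11139 and 7862.

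LT-HSC and ST-HSC differed for few splicing genes. Of 74, 5 were at least 2-fold lower in LT-HSC and 2 higher, 6.76% and 2.7% of the members, against 5.41% and 7.28% of all genes. The share of lower members was thus near the background, and that of higher members below it. The median was -0.18. By any amount, 49 members were lower in LT-HSC and 22 higher, where 33.8% of all genes were lower and 33.7% higher. This direction rests on the scaling: with the hybridization controls 3 members were at least 2-fold lower and 5 higher, and the median was 0.0048. Prpf38a, a protein of the precatalytic spliceosome, had 447 in LT-HSC and 1487 in ST-HSC (3.33-fold). Prpf31 had 1307 and 3498 (2.68-fold), Hnrnpll 1081 and 2502 (2.31-fold), Snrpd3 969 and 2214 (2.28-fold) and Sf3a1 1534 and 3448 (2.25-fold). Of these, Snrpd3 and Sf3a1 were near ST-HSC in HPC as well, at 2196 and 2978, so LT-HSC was the lowest of the 3 arrays. In the other direction Prpf6 had 5289 in LT-HSC and 2419 in ST-HSC (2.19-fold), and Lsm10 had 871 and 417 (2.09-fold). For Prpf6 another bright probe set gave 3305 and 2298. Another probe set of Sf3a1 (608 and 838) and one of Hnrnpll (1097 and 1817) also stayed inside 2-fold. The granulocyte and B-lineage markers of the LT-HSC array moved with this comparison, and their part in it was not tested.

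Among the 3 arrays of immature cells most members differed little. Leaving granulocytes out, 63 of 74 members (85.1%) stayed within 2-fold from the lowest to the highest array, against 77.1% of all genes and 74.9% of the bright genes. The other 11 had ranges of up to 3.61-fold, the widest for Hnrnpll.

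**Figure D4:**
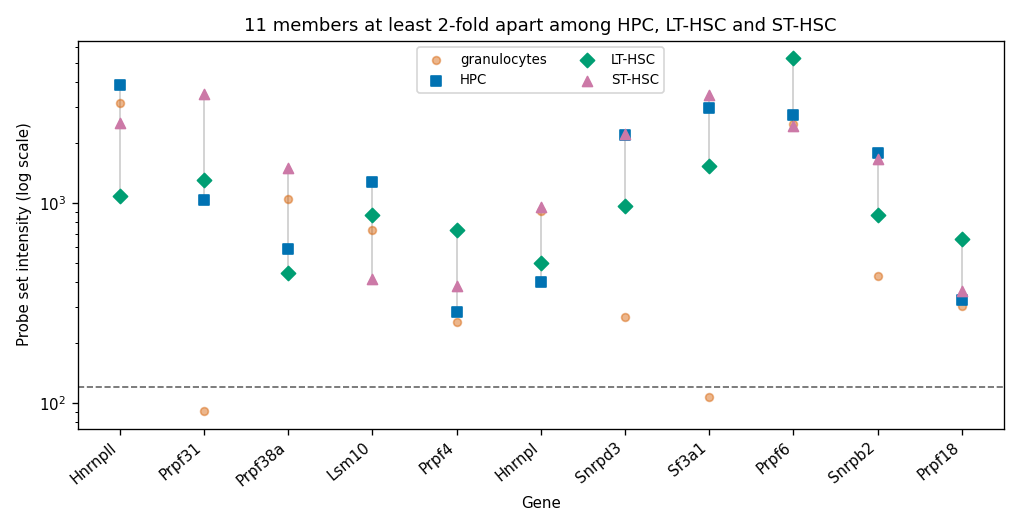
Probe set intensity (log axis) on the 4 arrays for the 11 members at least 2-fold apart among HPC, LT-HSC and ST-HSC, in order of that range; the dashed line is the floor of 120.1 and the paler points are granulocytes. LT-HSC is the lowest of the 3 for Hnrnpll, Prpf38a, Snrpd3, Sf3a1 and Snrpb2 and the highest for Prpf4, Prpf6 and Prpf18.

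The promoters of these genes were read from RefSeq (GRCm38.p6). A promoter was found for 64 of the 74 genes, and the 250 bases before the start were searched on both strands, using the first promoter listed for a gene. CCGGAAG (reverse CTTCCGG), a core of ETS factor sites, was present in 25% of member promoters and in 10.6% of 14452 promoters of genes on the array. GGGCGG (reverse CCGCCC), the GC box, was present in 62.5% and 49.9%, and CCAAT (reverse ATTGG) in 46.9% and 35.7%. TATAAA (reverse TTTATA), the TATA box, was present in 6.25% and 9.02%, and CACGTG, the E-box palindrome, in 4.69% and 7.56%. Member promoters had a median of 20 CG dinucleotides, against 13 over all. Motif shares among genes of like brightness or like CG content were not counted. The ETS core was found in 7 of 22 members that were 2-fold lower in granulocytes and in 9 of 42 others, a difference that was not tested. A match describes letters only, not binding.

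By their brightest probe sets Sf3b6 and Srsf5 gave their highest signal in granulocytes, while other bright probe sets of Sf3b6 did not. The stretches below contrast this pair with a pair that were lower in granulocytes, Sf3a3 and Snrpa1, all chosen after their values were seen. Each gives the 250 bases up to the start, 5′ to 3′, on the plus strand of GRCm38.p6, at chr4:124714611-124714860 for Sf3a3, chr7:66060086-66060335 for Snrpa1, chr12:4817358-4817607 for Sf3b6 and chr12:80945249-80945498 for Srsf5. Capitals mark the ETS core, the GC box and the CCAAT motif on either strand, and near the end of the Srsf5 stretch a GC box and an ETS core overlap.
Sf3a3: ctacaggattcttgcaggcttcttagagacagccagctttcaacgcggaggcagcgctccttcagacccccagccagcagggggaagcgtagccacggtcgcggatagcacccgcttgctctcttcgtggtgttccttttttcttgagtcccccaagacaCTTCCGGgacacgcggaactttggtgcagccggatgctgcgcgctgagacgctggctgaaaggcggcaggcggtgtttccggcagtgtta
Snrpa1: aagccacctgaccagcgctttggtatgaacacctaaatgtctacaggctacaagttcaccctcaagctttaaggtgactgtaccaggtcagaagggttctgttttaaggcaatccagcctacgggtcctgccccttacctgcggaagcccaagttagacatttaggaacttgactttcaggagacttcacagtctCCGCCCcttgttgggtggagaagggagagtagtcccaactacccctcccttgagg
Sf3b6: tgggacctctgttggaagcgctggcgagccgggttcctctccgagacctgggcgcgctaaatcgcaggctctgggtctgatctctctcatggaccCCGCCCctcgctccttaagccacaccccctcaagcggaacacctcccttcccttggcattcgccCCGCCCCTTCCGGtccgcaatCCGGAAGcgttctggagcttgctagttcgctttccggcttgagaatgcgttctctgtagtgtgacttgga
Srsf5: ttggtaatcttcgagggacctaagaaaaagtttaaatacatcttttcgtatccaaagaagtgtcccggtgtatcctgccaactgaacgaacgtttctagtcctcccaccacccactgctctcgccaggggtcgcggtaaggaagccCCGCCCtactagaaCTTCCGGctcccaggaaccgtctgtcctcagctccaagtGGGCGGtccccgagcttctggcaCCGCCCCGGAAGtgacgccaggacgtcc
Sf3a3 holds 1 ETS core and Snrpa1 holds 1 GC box, while Sf3b6 holds 2 of each and Srsf5 holds 2 ETS cores and 3 GC boxes. None of the 4 holds CCAAT. This contrast belongs to the 4 chosen genes and not to the members as a whole. Over the members, the ETS core was in 7 of 22 lower genes and 9 of 42 others. The GC box was in 13 of 22 and 27 of 42, and neither difference was tested.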

How the data were processed

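The deposited table holds probe set intensity on a linear scale, 1 column per array, for 45101 probe sets. The software behind them is not given in the sources used here. On every array the mean after trimming 2% at each end was 500, so the deposited intensity values were used as scaled by the authors. After 64 controls were left out, 34945 probe sets had 1 gene symbol in the platform annotation of GEO, 932 had several and 9160 none. All 74 members were found by Entrez number in RefSeq (GRCm38.p6) under the same symbol.

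Values under the floor (120.1) were set to it before log2. A gene was represented by whichever of its probe sets was brightest (mean of log2 values over the arrays). Calls needed 2-fold or 4-fold against each reference array. Folds with the low side under the floor are given as at least N-fold. Members, gene lists and comparisons were chosen with earlier results of these data known, and the bright-gene background was added after the values were seen. For granulocytes, all 4 signals are given for the 16 members with the largest lower and the 8 with the largest higher difference; for the other comparisons, for the 6 largest in each direction. In all cases the higher side had to reach the 75th percentile of its array, which leaves out dimmer members such as Lsm11 and Prpf40b. Any member could be named. Values were computed in pandas 2.3.3 and numpy 2.4.6 (Python 3.11.15), tested on simulated data and plotted with matplotlib 3.10.9. The 8 alternatives changed the floor, the probe set, the scaling or the filter on dim genes.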

Additional observations from a re-analysis of the deposited data

How the results depend on the processing

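The number of arrays, 1 per population, limits every value, and signals near the floor have little precision. No paired analysis was possible because each population has 1 array and no test was made. The 23 members lower in granulocytes became 15 with the median over probe sets (20.3% of members, 8.57% of all genes) and 15 of 67 without probe sets of suffix a, s or x. They became 16 with a common 75th percentile and 32 with the hybridization controls, where 10.8% and 17.6% of all genes were lower. These scalings shift granulocyte differences by 0.23 and -0.53 for genes above the floor on all arrays and represented by the same probe set. The median of -0.47 became -0.38 with the floor at the 75th percentile, -0.24 with a common 75th percentile and -1.01 with the hybridization controls. For HPC, the 0 lower members became 2 with the first probe set by name, 1 with the median over probe sets and 3 without suffixed probe sets, and the median of 0.06 became 0.0002, -0.043 and 0 in turn, 0.20 with a common 75th percentile and 0.22 with the hybridization controls. For LT-HSC against ST-HSC, the 2 higher members became 1 with the first probe set, with the median over probe sets, without suffixed probe sets and with a common 75th percentile (7 lower), and 5 with the hybridization controls (3 lower). The median of -0.18 became -0.13 without suffixed probe sets, -0.29 with a common 75th percentile and 0.0048 with the hybridization controls. Prpf4b went from -2.18 to 0.037 in granulocytes with its first probe set by name, which shows that probe set alone. The cause was not tested for the other shifts beyond the change in probe sets or scale that each setting makes.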

Other observations

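Probe sets annotated to several genes were kept out of the 74 members, and 19 of them carried a symbol of the same families. Of these 19, 7 were at least 2-fold lower in granulocytes than on each other array and none higher. The 7 are not separate genes: they belong to Hnrnpa1, which is already among the lower members, Hnrnpa3 and Snrpd2. The share over all probe sets annotated to several genes was not counted. The 3 probe sets shared by Hnrnpa1 and its near-identical copies had 370, 729 and 1107 in granulocytes, and 4692 to 10785 in HPC. The 4 probe sets shared by Hnrnpa3 and Gm6793 were all lowest in granulocytes, from 925 against 8096, 8795 and 10207 to 1674 against 3287, 3800 and 7020. Snrpd2 with Gm5848, a further Sm protein, had 1933 against 5304, 5160 and 5845. Signals of gene and copy cannot be separated on these probe sets.

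Snrpn was under the floor on every array with its only single-symbol probe set, but a probe set shared by Snurf and Snrpn, which lie on 1 transcript, had 2102 in granulocytes against 2953, 2304 and 2179. The low member value therefore does not describe every transcript of that locus.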
